A study of Mus musculus with 4 samples.

Results

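The EGF receptor family and its ligands were described in single cells of synovium and lung from mice that carry a human TNF transgene and from littermates without it. The group holds 10 of the 32285 genes in the count matrices: the ligands Ereg, Areg, Hbegf, Btc, Tgfa, Nrg1 and Nrg2, and the receptors Egfr, Erbb2 and Erbb3. The genes were taken by symbol, and they were selected on measured values: their UMI counts by cell lineage in these 4 libraries. Their levels and the differences between the libraries are therefore given as a description, with no test.

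The study profiled single-cell suspensions by droplet-based 3' RNA sequencing in hTNFtg mice (TNF+), a model of inflammatory arthritis with lung vascular disease, and in littermate TNF negative control mice (TNF-). All mice were 4 months old, and the study used females on a C57BL/6 background. Each library held the joined tissue of 3 to 5 mice (lung) or 5 to 10 mice (synovium) of a genotype, so that each of the 4 groups (lung TNF-, lung TNF+, synovium TNF- and synovium TNF+) is 1 library. The line overexpresses human TNF, whose transcript is not in the mouse reference, and no group has a replicate. Intervals below are 95% intervals that cover counting error only, and they hold neither the spread between mice nor that between preparations.

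Ligands of this family are made as membrane-bound precursors, are cut free at the cell surface by sheddases such as Adam17, and act on nearby cells or on the cell that made them. Epiregulin (Ereg), amphiregulin (Areg), heparin-binding EGF-like growth factor (Hbegf), betacellulin (Btc) and transforming growth factor alpha (Tgfa) bind Egfr, whereas the neuregulins Nrg1 and Nrg2 bind Erbb3 and Erbb4. Erbb2 has no known soluble ligand and signals as the partner of the other receptors. In joints the pathway is studied for its actions on fibroblasts, cartilage and bone, in lung for its actions on epithelial repair, and in nerves for the dependence of Schwann cells on neuregulin.

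Kept cells numbered 6200 of 6899 barcodes (synovium TNF-), 3152 of 4246 (synovium TNF+), 6998 of 8555 (lung TNF-) and 9174 of 11243 (lung TNF+), with between 33047125 and 84398714 UMIs per library and medians of 7137 to 12492 UMIs per cell. The synovium TNF+ library stood apart, since 17.6% of its barcodes exceeded the limit on mitochondrial UMIs against 1.41% to 3.78% in the other 3. Cells were clustered within each tissue and named from marker genes, and a name means only that the cells resembled the class by those markers. Class shares differed between the libraries of a tissue: mesenchyme was 58.7% of synovium TNF- and 21.0% of synovium TNF+ cells, myeloid cells 10.0% and 38.7%, and Schwann cells 1.08% and 7.39%. Epithelium was 1 cell of synovium TNF- and 143 cells of synovium TNF+. These cells were led by Cldn4, Krt18 and Krt8, carried 14 epithelial markers, and are not a type that defines synovium. In the lung, endothelium was 32.7% and 4.34% of cells, and the TNF+ endothelium and mesenchyme were shallow, with medians of 783.5 and 790 UMIs per cell against 5569.5 and 6462. Between 3 and 16 cell barcodes were shared by any 2 libraries.

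The first question was where each member was found and whether its level differed between the genotypes. Levels are UMIs of a gene scaled to all UMIs of the summed cells (CPM). They were compared between TNF+ and TNF- of a tissue, never between genes, and a member was counted as higher or lower when it differed by at least 2-fold with at least 20 UMIs over both libraries. In whole synovium all 10 members had enough UMIs. Of these, 5 were higher in TNF+ (Ereg, Areg, Hbegf, Tgfa and Erbb3), 3 were lower (Btc, Nrg2 and Egfr), and Nrg1 and Erbb2 were within 2-fold. Among all 19255 genes tested, 11.8% were higher and 21.9% lower by the same rule, with a median log2 ratio of -0.17. Without the epithelium and a further cluster led by Krt14, a choice made after seeing the data, 3 members were higher and 3 lower. Without the clusters that held over 90% of their cells from 1 library, 1 was higher and 3 were lower. In whole lung none of the 10 members was higher and 6 were lower (Hbegf, Btc, Tgfa, Egfr, Erbb2 and Erbb3), against 5.79% and 25.5% of 19510 genes and a median log2 ratio of -0.32. Whole-tissue levels carry the make-up of the library: fewer cells of a type and less RNA per cell cannot be told apart in them, so each member is followed into the classes below.

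**Figure D1:**
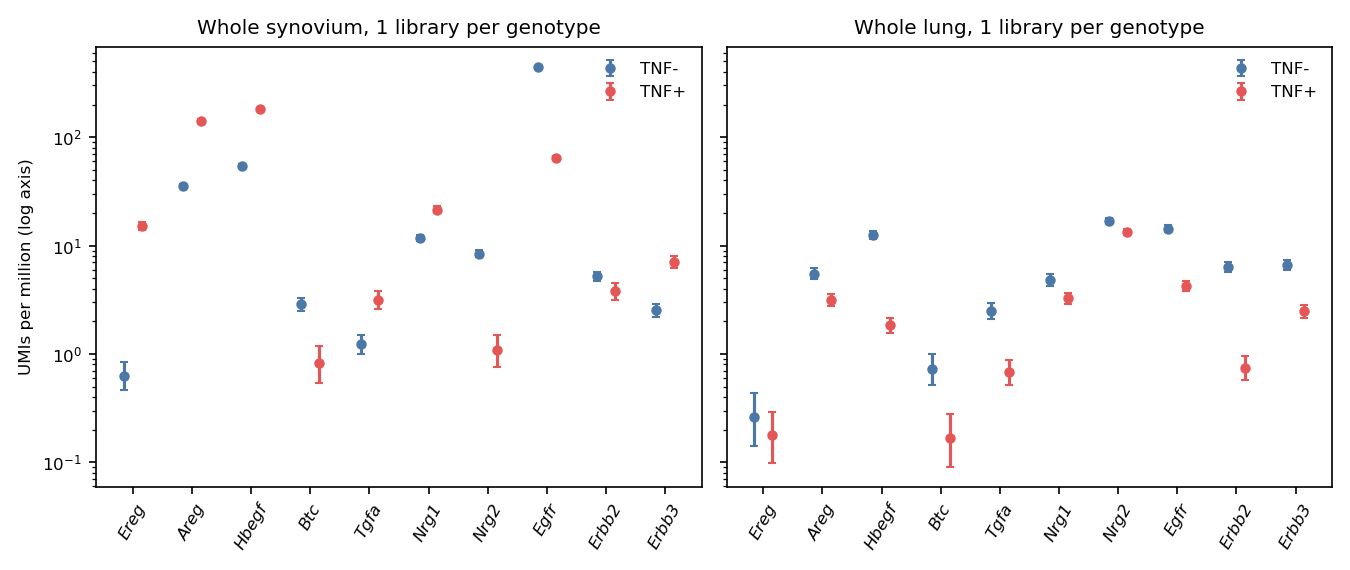
Level of each member over all kept cells of a library, in CPM on a log axis, with exact Poisson 95% intervals. Each point is 1 library. The Ereg points of synovium stand at 0.630 (TNF-) and 15.1 CPM (TNF+), those of Egfr at 440 and 64.7 CPM, and no member was over 2-fold higher in lung TNF+.

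Areg (ENSMUSG00000029378, chromosome 5, 91139599 to 91148432, plus strand, GRCm38) lies beside Ereg (ENSMUSG00000029377, chromosome 5, 91074622 to 91093646, plus strand) and near Btc (ENSMUSG00000082361, chromosome 5, 91357261 to 91402994, minus strand) and the ligand gene Epgn. The 300 bases around the start site were read by symbol from RefSeq sequence (GRCm38.p6) for 5 of the 10 members: Areg, Btc, Tgfa, Egfr and Erbb2. Those of Ereg, Hbegf, Nrg1, Nrg2 and Erbb3 were not analysed here. The windows were searched on both strands for the AP-1 motif TGANTCA, the cAMP response motif TGACGTCA and the kB motif. The windows of the 2 members with a match are shown because both are ligands that stood over 2-fold higher over all cells of synovium TNF+. Without clusters held over 90% by 1 library those log2 ratios were -0.69 (Areg) and 0.07 (Tgfa). The windows are given 5' to 3' in the direction of the gene, with the matched letters in capitals.
Areg (chr5:91139349-91139648, plus strand): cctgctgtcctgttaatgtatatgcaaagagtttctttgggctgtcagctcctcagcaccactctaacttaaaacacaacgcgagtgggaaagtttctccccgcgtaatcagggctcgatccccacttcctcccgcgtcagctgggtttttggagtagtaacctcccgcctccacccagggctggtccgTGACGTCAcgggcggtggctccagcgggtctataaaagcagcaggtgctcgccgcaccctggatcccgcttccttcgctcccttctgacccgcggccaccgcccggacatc
Tgfa (chr6:86194972-86195271, plus strand): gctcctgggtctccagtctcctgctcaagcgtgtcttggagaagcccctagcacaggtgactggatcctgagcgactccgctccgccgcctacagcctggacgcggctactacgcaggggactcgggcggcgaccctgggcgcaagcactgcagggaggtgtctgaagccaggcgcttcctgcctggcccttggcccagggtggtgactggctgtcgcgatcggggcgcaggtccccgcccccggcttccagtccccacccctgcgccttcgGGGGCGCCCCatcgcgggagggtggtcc
The Areg window holds 1 TGACGTCA, which no other of the 5 windows holds and which was in 1.79% of 32851 promoter windows. The Tgfa window holds 1 kB match, a motif found in 8.46% of windows. No window of the 5 held TGANTCA, found in 7.81% of all windows. A match says only that the letters are there.

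The cells that held Areg differed between the synovial libraries. Over all synovial cells it had 2709 UMIs or 35.5 CPM (34.2 to 36.9) in TNF- and 4682 UMIs or 142 CPM (138 to 146) in TNF+, a log2 ratio of 1.99 (1.93 to 2.06). In TNF- synovium, 83.1% (81.7 to 84.5) of the Areg UMIs lay in lymphocytes. In TNF+ synovium lymphocytes held 6.39%, myeloid cells 53.1% (51.6 to 54.5) and epithelium 36.4% (35.0 to 37.8). The TNF- signal was therefore lymphoid and the TNF+ signal mostly myeloid and epithelial.

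Within the TNF- lymphocytes, Areg lay in NK or innate lymphoid-like cells led by Il5, Gata3 and Il13, genes of type 2 lymphoid cells. These 143 cells held 79.2% of all Areg UMIs of the library, stood at 1181 CPM (1131 to 1232), and 77.6% of them carried an Areg UMI, or 45.5% after each cell was thinned to 1000 UMIs. The TNF+ library held 19 such cells, under the 20 needed for a comparison, at 2189 CPM (1925 to 2478). The level over all lymphocytes was 552 CPM in TNF- and 254 CPM in TNF+, a log2 ratio of -1.12 (-1.30 to -0.95). T cells stood at 71.3 and 58.9 CPM, a difference within counting error.

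Myeloid Areg stood at 40.6 CPM (36.8 to 44.8) in TNF- and 150 CPM (144 to 156) in TNF+ synovium, a log2 ratio of 1.88 (1.73 to 2.04). A macrophage or monocyte cluster led by Spp1 and Cxcl3, with 9 TNF- and 726 TNF+ cells, held 40.9% of the Areg UMIs of TNF+ synovium at 179 CPM. In clusters that both libraries filled, dendritic cells stood at 39.7 and 136 CPM (log2 ratio 1.78), a macrophage or monocyte cluster led by Cd300e and Treml4 at 10.1 and 47.5 CPM (2.23), and one led by C1qa and C1qc at 111 and 110 CPM (-0.01). The higher myeloid level was thus not shared by the C1qa cluster. A large part of the TNF+ signal lay in few cells: the 5 cells with the most Areg UMIs held 631 of 2485 myeloid UMIs.

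The TNF+ epithelium stood at 990 CPM Areg (944 to 1039), with a UMI in 49.7% of its 143 cells and in 23.2% after thinning. RNA freed from other cells would have given 4.51 UMIs there by the ratio of myeloid genes, and 1702 were found. Mesenchyme stood at 0.461 and 23.9 CPM, a log2 ratio of 5.70, and 175 of its 183 TNF+ UMIs lay in a fibroblast cluster led by Mmp13 and Saa3 with 2 TNF- and 236 TNF+ cells. Without the clusters that held over 90% of their cells from 1 library, the whole-synovium ratio of Areg turned to -0.69 and the mesenchymal ratio to -1.63, the latter on 12 UMIs. Such a cluster may be the library rather than a cell type, and which of them it is cannot be told apart here.

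Ereg UMIs lay almost all in synovium TNF+. Ereg had 48 UMIs in synovium TNF-, of which 45 lay in 1 fibroblast, and 500 in synovium TNF+, over 101 cells. The levels were 0.630 CPM (0.464 to 0.835) and 15.1 CPM (13.8 to 16.5), a log2 ratio of 4.59 (4.16 to 5.04). Myeloid cells held 1 UMI in TNF- and 319 in TNF+, and mesenchyme 46 and 173. In TNF+ the Spp1 cluster held 311 of the 500 UMIs (62.2%) and the Mmp13 fibroblast cluster 171 (34.2%), at 29.1 and 44.6 CPM. Both clusters were nearly absent from TNF- synovium, so that no level of the same cells in both libraries can be set side by side. In lung Ereg had 14 UMIs in TNF- and 15 in TNF+. A gene without a name, Gm19610, overlaps Ereg on the other strand.

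Ereg and Areg were read together in the cells that held both. Of the 51 TNF+ synovial macrophages or monocytes with an Ereg UMI, 33 (64.7%) also had an Areg UMI, and these were 15.9% of the 207 cells with Areg, among 1114 cells in all. Of 43 TNF+ fibroblasts with Ereg, 10 also had Areg, of 26 with Areg. Deeper cells are more likely to show either gene, so these shares are a description.

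**Figure D2:**
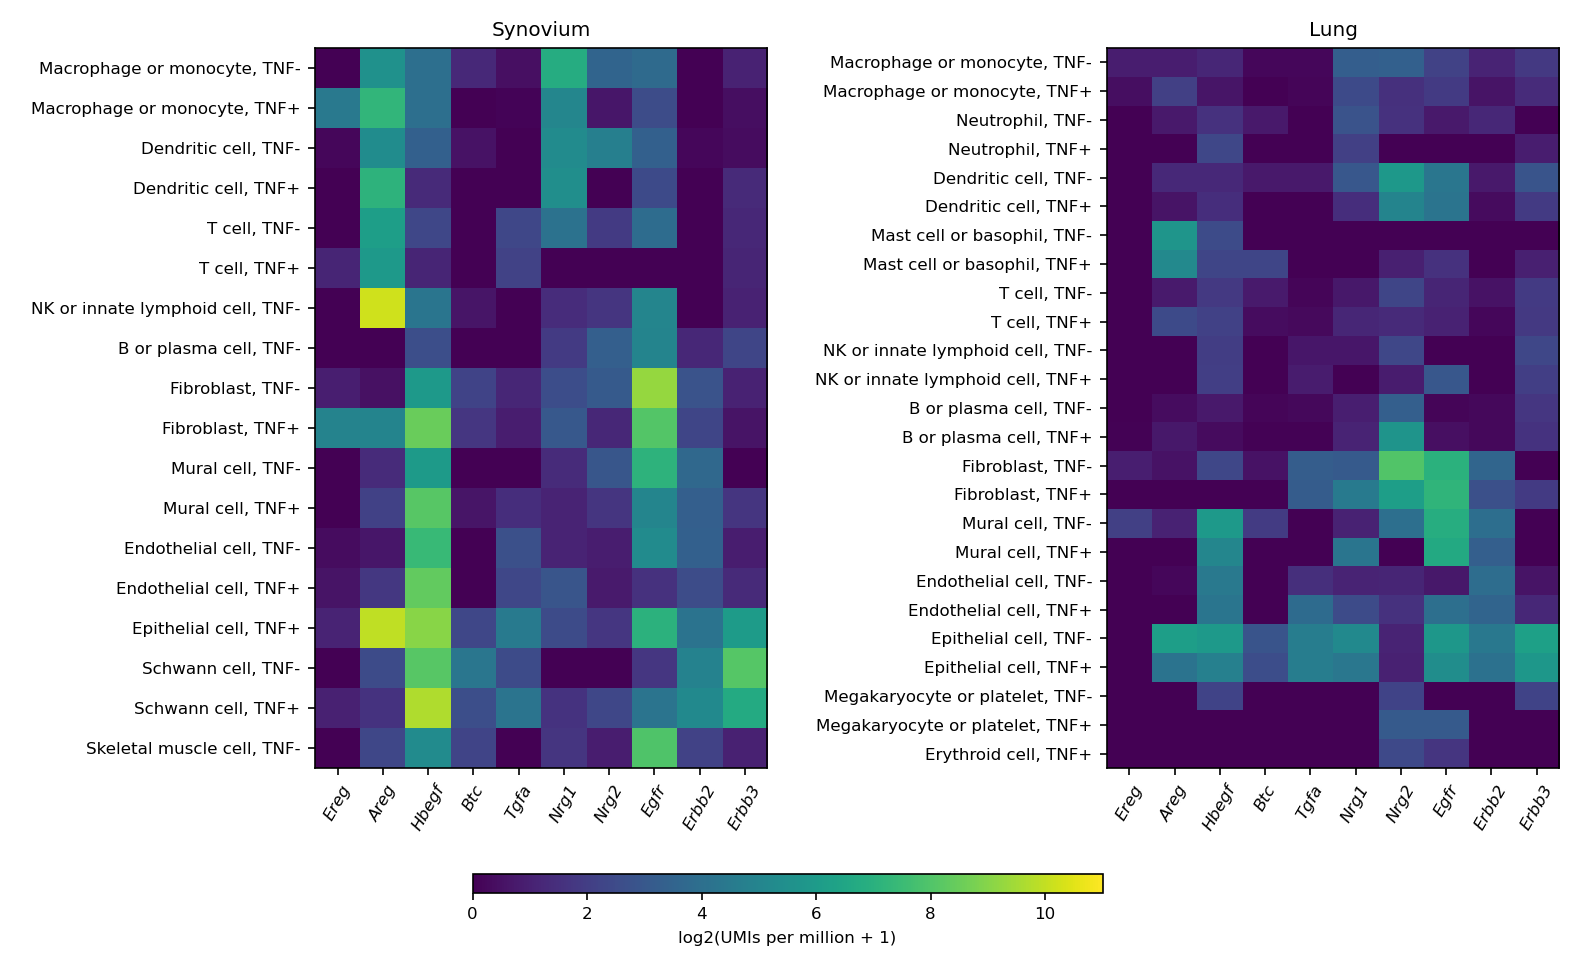
Level of each member by cell type and library, as log2(CPM + 1) by colour, for the types with at least 50 cells in the library. Areg is at its highest in NK or innate lymphoid-like cells of synovium TNF- and in epithelium of synovium TNF+, Egfr in fibroblasts, Erbb3 in Schwann cells and lung epithelium, and Nrg2 in lung fibroblasts of TNF-.

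Hbegf (ENSMUSG00000024486, chromosome 18, 36504927 to 36515805, minus strand) was found in mesenchyme, endothelium, epithelium and Schwann cells of synovium. It stood at 54.3 CPM (52.7 to 56.0) in TNF- and 181 CPM (177 to 186) in TNF+, a log2 ratio of 1.74 (1.68 to 1.80), from 4139 and 5995 UMIs. Mesenchyme held 73.7% of the UMIs in TNF- and 43.4% in TNF+. Endothelium held 14.3% and 22.9%, and Schwann cells 2.92% and 13.2%. Hbegf was also higher within several clusters with at least 20 cells in each library, but not in all. Among those where it was not higher were the dendritic and T cell clusters, the C1qa macrophage or monocyte cluster and the fibroblasts led by Stmn4.

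Synovial mesenchyme stood at 58.6 CPM (56.5 to 60.7) Hbegf in TNF- and 340 CPM (327 to 353) in TNF+, a log2 ratio of 2.54 (2.46 to 2.61). Fibroblasts led by Chad, Kera and Fmod, genes of fibrous and cartilage matrix, stood at 319 and 1483 CPM (2.22), and 55.0% and 80.5% of these 367 and 77 cells had a UMI. Fibroblasts led by Gdf10 and C4b showed a log2 ratio of 1.24, and those led by Grm8 and Cxcl14 one of 0.52. Schwann cells stood at 282 CPM (234 to 337) and 819 CPM (763 to 878), a log2 ratio of 1.54 (1.26 to 1.82). The 2 Schwann clusters were filled unequally, with 52 and 19 cells in the one with Cdh19 and Gfra3 among its leading genes and 15 and 214 in the one with Mal and Cldn19 among its leading genes. In the first, Hbegf stood at 282 and 814 CPM, and in the second at 283 and 820 CPM. Per cell the ratio over all Schwann cells was 0.91.

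In synovial endothelium Hbegf stood at 170 and 331 CPM, a log2 ratio of 0.96 (0.82 to 1.10) that fell just short of 2-fold. Endothelium led by Timp4 and Aqp1 stood at 197 and 401 CPM (1.02), and endothelium led by Cytl1 and Gkn3 at 59.3 and 244 CPM (2.04). Synovial myeloid cells showed a log2 ratio of 0.38, and the C1qa cluster one of -0.22. The synovial epithelium stood at 522 CPM in TNF+. Of its 143 cells, 70 had an Hbegf UMI and 44 an Egfr UMI, and 40 had both. Deeper cells are more likely to show either gene, so this overlap is a description.

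Early-response genes can be induced by cell dissociation, so a list of 14 dissociation-response genes was read beside Hbegf. Their summed level was 15434 CPM in TNF- and 6195 CPM in TNF+ synovium. Of the 14 genes, 9 were lower and none higher in TNF+, against 21.9% and 11.8% of all genes. In mesenchyme the summed level was 17637 and 9526 CPM, with 4 genes lower, against 18.9% of all genes. In endothelium it was 17955 and 12021 CPM, with 1 higher and 3 lower, against 6.67% and 10.6%. The log2 ratio of Hbegf was 2.54 and 0.96 in these classes. The list was also lower in synovial lymphocytes, at 8786 and 3770 CPM with 9 of 14 genes lower, against 13.3% of all genes. Over that class Hbegf and the other 3 members with enough UMIs were lower. In myeloid cells the list stood at 7305 and 3097 CPM, with 10 genes lower, against 19.9% of all genes. Its part in the levels of the members was not tested.

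In lung, Hbegf stood at 12.5 CPM (11.6 to 13.5) in TNF- and 1.85 CPM (1.57 to 2.16) in TNF+, a log2 ratio of -2.76. Within classes the difference was smaller: epithelium stood at 59.7 and 26.6 CPM (-1.16), mesenchyme at 30.2 and 11.9 CPM (-1.34, on 122 and 7 UMIs), endothelium at 20.6 and 18.6 CPM (-0.14) and lymphocytes at 1.69 and 1.71 CPM (0.02). The lung endothelial cells of the libraries lay in nearly separate clusters, with 1414 and 5 cells in the one led by Glp1r and Tek and 17 and 264 in one led by Prnd and Hspg2, so an endothelial ratio sets different clusters side by side. The lung mesenchymal value was -0.48 with no filter on cells and -0.70 as a mean over cells, and the epithelial one -0.66 with no filter. In TNF- lung, epithelium led by Rtkn2 and Ager, genes of the flat alveolar cells, stood at 201 CPM and the TNF+ cells of that cluster at 87.0 CPM (-1.21).

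Btc, Tgfa and the neuregulins were rarer. Btc stood at 2.87 CPM in synovium TNF- and 0.817 CPM in TNF+, from 219 and 27 UMIs (log2 ratio -1.81). Mesenchyme held 84.5% of the TNF- UMIs, and within mesenchyme the ratio was -0.86 (-1.72 to -0.10). Without clusters held over 90% by 1 library the whole-synovium ratio was -0.50, on 22 UMIs. In lung Btc had 39 and 14 UMIs (-2.13), of which 22 lay in TNF- epithelium.

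Tgfa (ENSMUSG00000029999, chromosome 6, 86195223 to 86275719, plus strand) stood at 1.23 and 3.18 CPM in synovium, from 94 and 105 UMIs, a log2 ratio of 1.36 (0.95 to 1.78). Of the TNF+ UMIs, 36.2% lay in epithelium, and without epithelium and the Krt14 cluster the ratio was 0.34, and 0.07 without clusters held over 90% by 1 library. Within synovial mesenchyme and endothelium it was -0.19 and -0.41. Of the lung Tgfa UMIs, epithelium held 85 of 135 in TNF- and 24 of 57 in TNF+, where endothelium held 20. Epithelium stood at 24.0 CPM (19.2 to 29.7) in TNF- and 24.6 CPM (15.7 to 36.6) in TNF+. Over the whole lung the ratio was -1.89 (-2.37 to -1.44), or -0.71 as a mean over cells. Epithelium was 5.09% of TNF- and 1.71% of TNF+ lung cells.

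Nrg1 (ENSMUSG00000062991, chromosome 8, 31814551 to 32884029, minus strand) lay in myeloid cells of synovium, which held 65.3% of its 898 UMIs in TNF- and 76.9% of 706 in TNF+. The whole-tissue levels were 11.8 and 21.4 CPM, a log2 ratio of 0.86. Within the myeloid class the direction was the opposite, with 58.4 CPM (53.7 to 63.3) and 32.7 CPM, a ratio of -0.83. The macrophage or monocyte cluster led by Cd300e and Treml4 stood at 181 and 34.9 CPM (-2.37). The 36 TNF+ cells of the unnamed cluster led by Krt14 stood at 223 CPM. In lung, the Rtkn2 and Ager epithelium stood at 165 and 21.7 CPM (-2.93), on 172 and 32 cells, while the epithelium as a whole was within 2-fold (-0.91).

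Nrg2 (ENSMUSG00000060275, chromosome 18, 36017652 to 36197380, minus strand) was lower in synovium TNF+ in both classes in which it had enough UMIs. It stood at 8.40 CPM (7.76 to 9.08) in TNF- and 1.09 CPM (0.763 to 1.51) in TNF+, from 640 and 36 UMIs, a log2 ratio of -2.95. Mesenchyme stood at 7.70 and 1.57 CPM (-2.30) and myeloid cells at 20.8 and 0.543 CPM (-5.26). Dendritic cells had 178 UMIs in 372 TNF- cells and 0 in 84 TNF+ cells. An antisense gene, 4930471G03Rik, overlaps Nrg2 on the other strand.

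Lung Nrg2 lay in different cells in the 2 libraries at levels within 2-fold, 16.8 and 13.3 CPM (-0.34). In TNF- it lay in fibroblasts led by C7 and Abca8a, which held 61.5% of its UMIs at 308 CPM (283 to 334). In TNF+ 74.2% of its UMIs lay in B or plasma-like cells led by Jchain and Ighg1, at 154 CPM. The same cluster stood at 126 CPM in TNF- (0.29), but it held 22 TNF- and 145 TNF+ cells. The lymphocyte ratio of 2.10 (1.83 to 2.37) thus stood beside a similar level within that cluster. Mesenchyme stood at 147 and 44.2 CPM (-1.74), the TNF+ value from 26 UMIs in 5 cells, and the ratio was -0.41 under the stricter filter on cells.

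**Figure D3:**
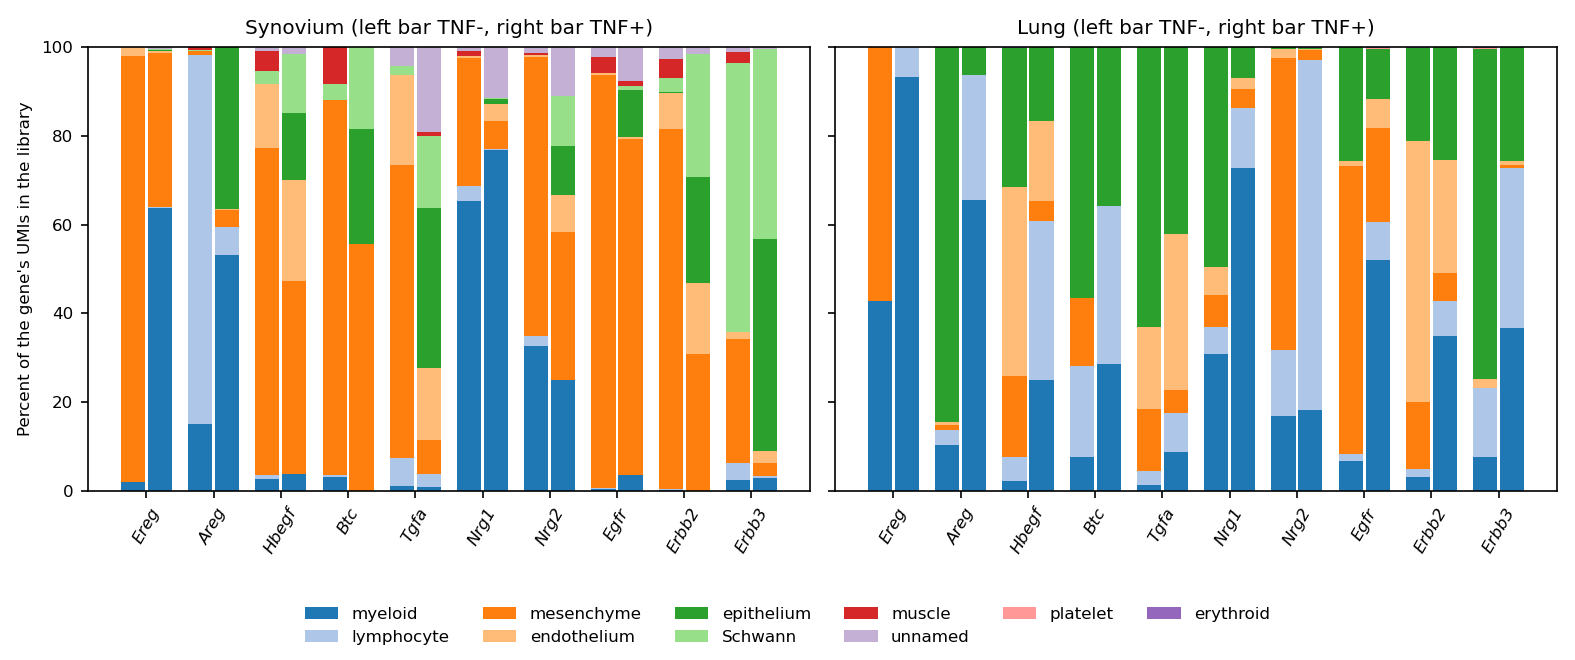
Share of each member's UMIs that lay in each cell class, in percent, for the 4 libraries; each bar adds up to all UMIs of the member in that library. Areg lies mostly in lymphocytes in synovium TNF- (83.1%) and in myeloid cells and epithelium in synovium TNF+ (53.1% and 36.4%). Egfr lies mostly in mesenchyme of both synovial libraries (93.0% and 75.6%). The shares depend on the make-up of each library.

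Egfr (ENSMUSG00000020122, chromosome 11, 16752203 to 16918158, plus strand), the receptor of Ereg, Areg, Hbegf, Btc and Tgfa, was a mesenchymal gene of synovium. It had 33493 UMIs or 440 CPM (435 to 444) in TNF- and 2138 UMIs or 64.7 CPM (62.0 to 67.5) in TNF+, a log2 ratio of -2.76 (-2.83 to -2.70). Mesenchyme held 93.0% of the UMIs in TNF- and 75.6% in TNF+. Within mesenchyme the levels were 598 CPM (592 to 605) and 211 CPM (201 to 222), a ratio of -1.50 (-1.58 to -1.43). The gene Egfros overlaps Egfr on the other strand.

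Within the fibroblast clusters with at least 20 cells in each library, Egfr differed little. Of these, the clusters led by Grm8, Gdf10 and Stmn4 held over 90% of their cells from TNF-. Fibroblasts led by Grm8 and Cxcl14 stood at 790 CPM (777 to 802) and 632 CPM (555 to 717), a log2 ratio of -0.32. Those led by Gdf10 and C4b stood at 470 and 405 CPM (-0.22), those led by Stmn4 and Pi16 at 621 and 552 CPM (-0.17), and those led by Chad and Kera at 295 and 265 CPM (-0.15). The cluster with the highest level of these, led by Grm8, made up 1334 of 3343 TNF- fibroblasts and 54 of 469 TNF+ fibroblasts, and the Mmp13 cluster, at 193 CPM, 2 and 236. Mural cells led by Abcc9 and Kcnj8 showed a ratio of -1.72. Without clusters held over 90% by 1 library, the mesenchymal ratio was -0.70.

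Outside mesenchyme, part of the Egfr signal was at the level that free RNA would give. The ratio of mesenchymal genes found in TNF- synovial lymphocytes would bring 93.5 Egfr UMIs there, and 100 were found. In T cells 25.6 would be brought and 21 were found, and in endothelium 118 and 134. In myeloid cells 81.5 would be brought and 120 were found, of which dendritic cells held 66 where 54.2 would be brought. In TNF+ synovium 9.92 would be brought to myeloid cells and 79 were found, and 8.47 to endothelium and 8 were found. The endothelial ratio of -4.32 (38.6 and 1.93 CPM) and the lymphocyte value, 100 UMIs in TNF- and 0 in TNF+, or at least 9.63-fold lower, thus rest on counts near that background, and the lymphocyte log2 ratio was -0.64 on 13 UMIs under the stricter filter. Skeletal muscle stood above it, with 1207 UMIs where 93.2 would be brought, and so did TNF+ epithelium, with 228 and 1.38.

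Lung Egfr stood at 14.3 and 4.23 CPM (-1.76) over all cells and at 124 CPM (113 to 135) and 129 CPM (102 to 162) in mesenchyme, a log2 ratio of 0.06. Mesenchyme was 8.05% of TNF- and 2.33% of TNF+ lung cells. Epithelium stood at 55.7 and 41.0 CPM (-0.44), and its Rtkn2 and Ager cluster at 205 and 163 CPM. Lung endothelium had 9 and 23 UMIs, a ratio of 4.57 at 0.645 and 15.3 CPM, and 14 of the 23 lay in 2 cells of a cluster led by Prnd and Gm46565. As a mean over cells, the whole-lung ratio was -0.92.

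Erbb2 (ENSMUSG00000062312, chromosome 11, 98412470 to 98437716, plus strand) was found with few UMIs in mesenchyme, endothelium, Schwann cells and epithelium. In synovium it stood at 5.21 and 3.81 CPM (-0.45, from 397 and 126 UMIs), and no synovial class with enough UMIs differed by 2-fold. In lung it stood at 6.30 and 0.746 CPM, a log2 ratio of -3.08 (-3.49 to -2.69). TNF- endothelium held 58.7% of the lung UMIs, and over the endothelial class, whose cells lay in different clusters in each library, the levels were 14.2 and 10.6 CPM (-0.42). Within epithelium they were 20.1 and 16.4 CPM (-0.29). The gene Mien1 overlaps Erbb2 on the other strand.

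Erbb3 (ENSMUSG00000018166, chromosome 10, 128567523 to 128589652, minus strand), the neuregulin receptor that Schwann cells depend on, was a Schwann and epithelial gene. In synovium it stood at 2.53 and 7.08 CPM (1.48, 1.20 to 1.77), from 193 and 234 UMIs. Within Schwann cells the direction was the opposite, with 273 CPM (226 to 327) in TNF- and 104 CPM (84.3 to 126) in TNF+, a ratio of -1.40. Most Schwann cells of each library lay in a different cluster. In the Cdh19 cluster, with 52 and 19 cells, Erbb3 stood at 291 CPM (237 to 353) and 183 CPM (109 to 289), and in the Mal cluster, with 15 and 214 cells, at 193 CPM (108 to 318) and 94.5 CPM (75.2 to 117). The share of Schwann cells with an Erbb3 UMI after thinning was 20.9% and 8.06%. Of the TNF+ UMIs, 47.9% lay in epithelium, and without epithelium and the Krt14 cluster the whole-synovium ratio was 0.62; it was -1.04 without clusters held over 90% by 1 library. In lung, epithelium stood at 75.0 and 55.3 CPM (-0.44), and the whole-lung ratio was -1.42, or -0.37 under the stricter filter.

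**Figure D4:**
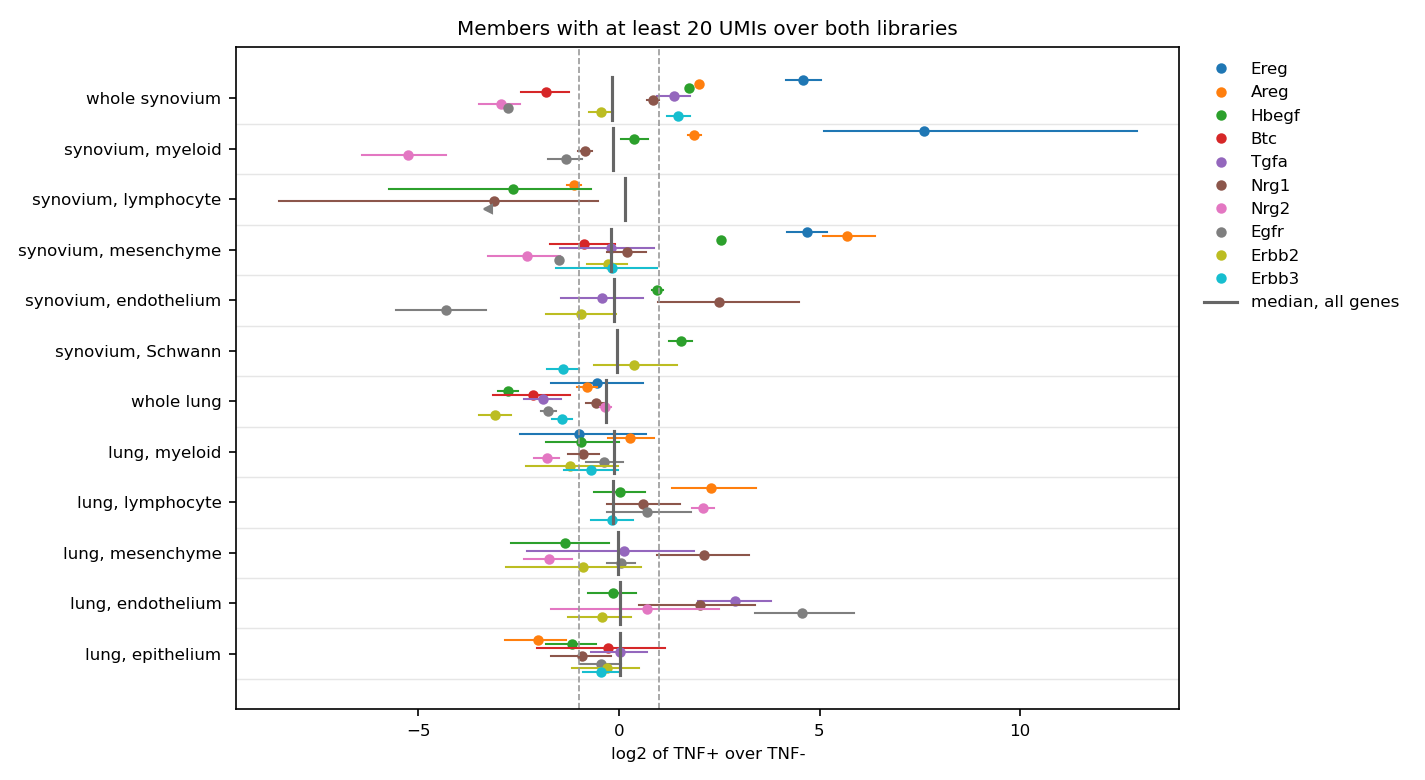
Log2 ratio of CPM, TNF+ over TNF-, for each member in whole tissue and in each class with at least 50 cells per library; bars are conditional binomial 95% intervals, the triangle is a bound against 0 UMIs, grey ticks are medians of all genes, and members with under 20 UMIs are left out. Dashed lines mark 2-fold. Areg, Hbegf and Ereg lie to the right in synovial mesenchyme, and Nrg2 lies to the left in both synovial classes shown.

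The classes were then counted against all genes. In synovial myeloid cells 6 members had enough UMIs, with 2 higher (Ereg and Areg) and 2 lower (Nrg2 and Egfr), against 9.32% and 19.9% of 13077 genes. Egfr there was -1.33, with most of its TNF- count at the level that free RNA would give, and it was -0.52 after removal of the highest doublet scores. In synovial mesenchyme 3 of 10 were higher (Ereg, Areg and Hbegf) and 2 lower (Nrg2 and Egfr), against 11.2% and 18.9% of 16871 genes. The median log2 ratio of all genes was -0.14 and -0.20 in these classes.

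In synovial lymphocytes all 4 members tested were lower (Areg, Hbegf, Nrg1 and Egfr) and none higher, against 13.3% and 7.72% of 10349 genes. For Areg, T cells stood at 71.3 and 58.9 CPM. The NK or innate lymphoid-like cells, 143 of 337 TNF- and 19 of 183 TNF+ lymphocytes, stood no lower in TNF+. Over the class, Hbegf and Nrg1 rested on 2 and 1 UMIs in TNF+. Hbegf turned to 0.70 as a mean over cells, and the Egfr count of TNF- was near that of free RNA. In synovial endothelium 1 of 5 was higher (Nrg1, from 4 to 27 UMIs, 26 of the 27 in 5 cells) and 1 lower (Egfr, at the free RNA level in both libraries), against 6.67% and 10.6% of 11904 genes. Nrg1 was 0.05 there under the stricter filter and -0.019 after removal of the highest doublet scores. In Schwann cells 1 of 3 was higher (Hbegf) and 1 lower (Erbb3), against 11.6% and 13.4% of 7773 genes. The median log2 ratio of all genes was 0.15, -0.13 and -0.04 in these 3 classes.

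In lung myeloid cells 2 of 8 members were lower (Nrg2, -1.79, and Erbb2, -1.22) and none higher, against 16.3% and 4.1% of 15670 genes. Erbb2 rested on 11 and 22 UMIs and turned to 0.16 with no filter on cells and 0.21 as a mean over cells. In lung lymphocytes 2 of 6 were higher (Areg and Nrg2) and none lower, against 6.18% and 10.1% of 16099 genes. Lymphocyte Areg had 10 and 75 UMIs, 0.470 and 2.30 CPM, and its ratio of 2.29 was 0.67 under the stricter filter. The median log2 ratio of all genes was -0.11 and -0.14.

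In lung mesenchyme 1 of 6 members was higher (Nrg1, 19 and 12 UMIs, 2.12) and 2 lower (Hbegf and Nrg2), against 9.59% and 9.15% of 11951 genes. In lung endothelium 3 of 6 were higher (Tgfa, Nrg1 and Egfr) and none lower, against 10.1% and 8.79% of 13453 genes. Of the 20 Tgfa UMIs in TNF+ endothelium, 18 lay in 2 cells of a cluster led by Ccl21a and Mmrn1. Without the 5 cells with the most UMIs, Nrg1 was 0.79 there and 0.87 in mesenchyme, and Tgfa gave no ratio. Of the 14 dissociation-response genes, 4 were higher and none lower in lung endothelium, at a summed 1849 and 1930 CPM, and their part in these 3 calls was not tested. In lung epithelium 2 of 8 were lower (Areg, 70.7 and 17.4 CPM, -2.02, and Hbegf) and none higher, against 7.08% and 11.8% of 11340 genes. The median log2 ratio of all genes was -0.03, 0.03 and 0.03 in these 3 classes.

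Lung Areg lay in epithelium led by Sftpb and Sftpc, surfactant genes, in TNF-, which held 84.5% of its 296 UMIs at 90.8 CPM (79.9 to 103). The TNF+ cells of that cluster stood at 21.3 CPM (12.2 to 34.6), a log2 ratio of -2.09, on 16 UMIs. In TNF+ lung, 48.3% of 267 UMIs lay in macrophages or monocytes led by Ccdc192 and Cd300e at 4.48 CPM, and 24.0% in T cells led by Il23r and Ccr4 at 8.61 CPM. Over the whole lung the levels were 5.50 and 3.16 CPM (-0.80).

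**Figure D5:**
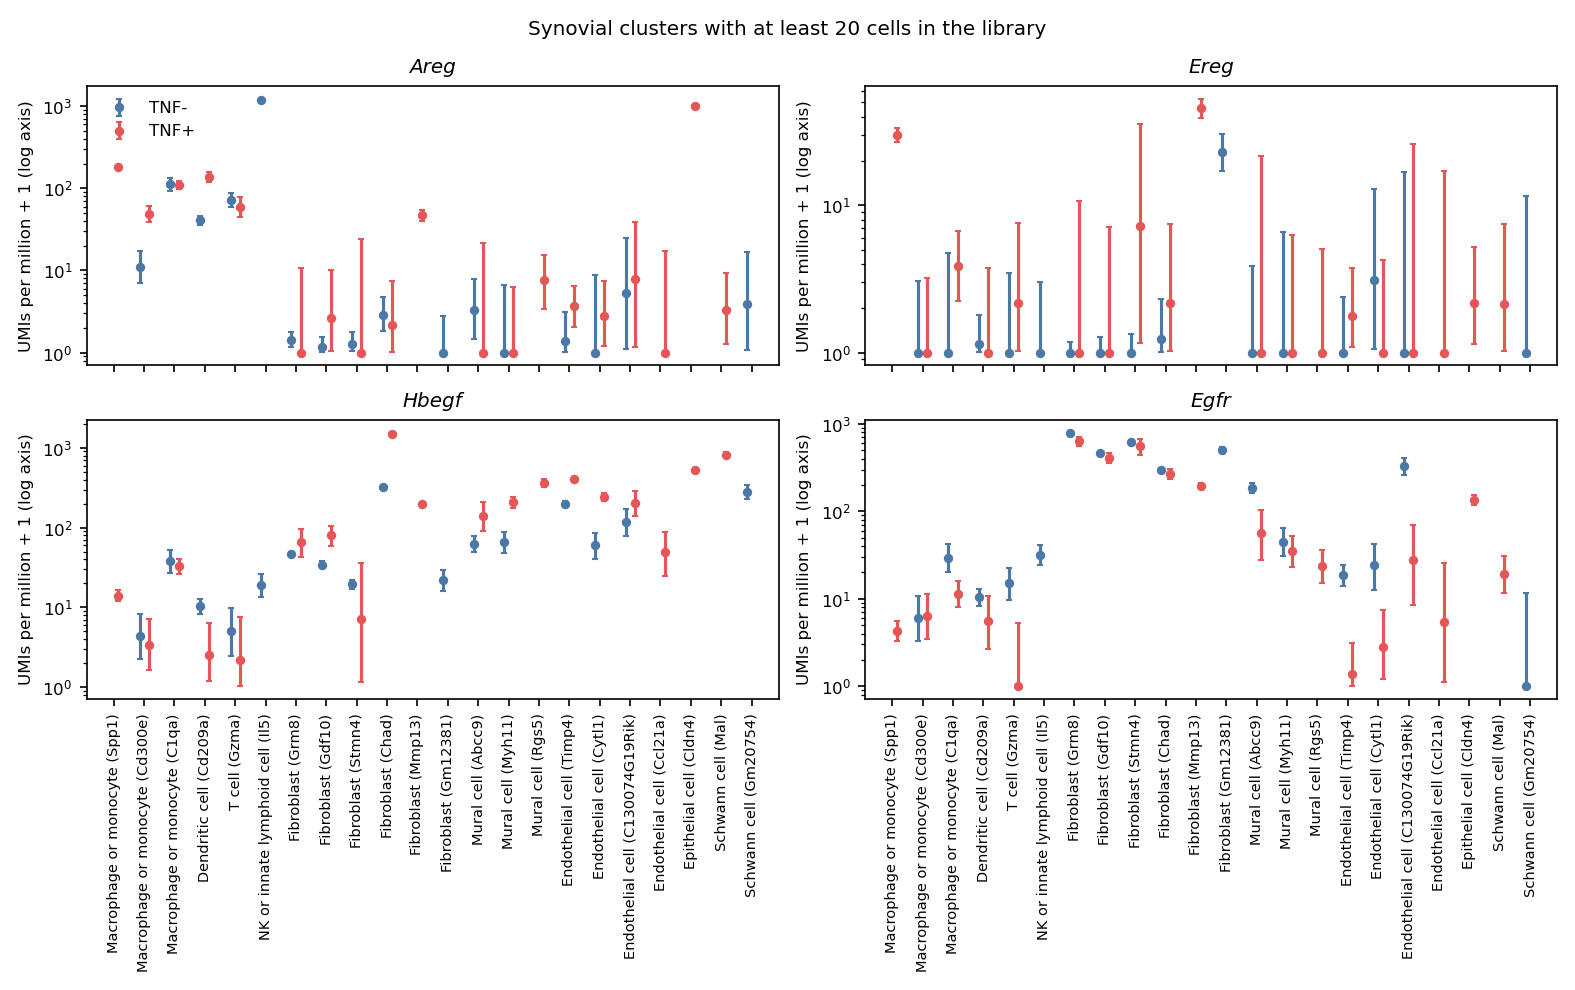
Level of Areg, Ereg, Hbegf and Egfr in the synovial clusters, other than muscle, neutrophil, B or plasma and unnamed ones, with at least 20 cells in the library, as CPM + 1 on a log axis, with exact Poisson 95% intervals. Clusters are labelled by type and a leading gene. The fibroblasts led by Chad stand at 319 and 1483 CPM Hbegf, and fibroblasts led by Grm8 at 790 and 632 CPM Egfr.

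Other genes of the pathway were read as lists. Of a list of 5 genes, further ligands and the receptor Erbb4, 3 were higher and 1 lower in whole synovium, with Epgn at 8 and 390 UMIs (6.81) and Erbb4 at 51 and 309 UMIs. The summed level of this list was 3.32 and 24.8 CPM there. It was 2.75 and 2.09 CPM in mesenchyme and 2.99 and 4.16 CPM in myeloid cells, with none of its genes higher. Endothelium stood at 4.32 and 4.35 CPM and Schwann cells at 4.67 and 7.25 CPM. The epithelium and the Krt14 cluster, nearly absent from TNF-, were not compared. Of 10 sheddases and their partners, which free the ligands, 2 were higher and 1 lower, with Adam8 at 22.8 and 134 CPM (2.56). None of 13 feedback inhibitors was higher and 6 were lower, none of 14 adaptors and kinases passed 2-fold, and of 10 ERK target genes 4 were higher and 2 lower. The share of all genes was 11.8% and 21.9% in whole synovium. Of the sheddase list, none of 9 genes tested was higher and 1 was lower within myeloid cells, against 9.32% and 19.9% of all genes. Myeloid cells were 10.0% of TNF- and 38.7% of TNF+ synovial cells. Within mesenchyme 2 of 10 genes of that list were higher and 1 lower, against 11.2% and 18.9%.

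Within synovial mesenchyme 5 of 10 ERK target genes were higher and none lower, against 11.2% and 18.9% of all genes, among them Fosl1, an AP-1 subunit, at 15.2 and 112 CPM (2.88) and Dusp4, a phosphatase that acts on ERK, at 1.63 and 8.23 CPM (2.33). Rhbdf2, a partner of the sheddase Adam17, stood at 2.44 and 31.1 CPM (3.67). This class held different fibroblast clusters in each library, such as the Mmp13 cluster with 2 TNF- and 236 TNF+ cells. The list genes were not read by cluster, so the make-up of the class and the level within a cluster cannot be told apart for them. In synovial endothelium 3 of 9 ERK target genes tested were higher and none lower, against 6.67% and 10.6% of all genes, with Fosl1 at 9.21 and 55.6 CPM (2.59) and Phlda1 at 56.4 and 153 CPM (1.43). In synovial myeloid cells 3 of 9 were higher and 3 lower, against 9.32% and 19.9%, and Ccnd1, a cyclin, was lower (-3.51, from 1259 and 182 UMIs). In Schwann cells the sheddase Adam12 (-2.65) and the feedback inhibitor Spry2 (-2.00) were lower. In synovial lymphocytes Spry1 was lower, on 96 and 4 UMIs (-2.79).

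In whole lung 1 of 13 feedback inhibitors was higher and 5 were lower, the named ones being Spry1 (-2.96), Spry4 (-2.85) and Lrig3 (-2.54), against 5.79% and 25.5% of all genes. Of 10 ERK target genes 5 were lower, and of the other lists 1 gene each was lower. In lung epithelium Ier3, an ERK target gene, stood at 326 and 46.1 CPM (-2.82), Spry1 at 115 and 34.8 CPM (-1.72) and Hras at 98.4 and 40.9 CPM (-1.27). In lung myeloid cells Spry2 (-2.95) and the ligand Nrg4 (-2.12) were lower. In lung lymphocytes Fosl1 (-2.87) and Errfi1, an inhibitor of Egfr (-1.51), were lower and Adam8 (1.38) was higher. In lung mesenchyme Erbb4 was higher (1.74) and Spry1 lower (-1.63), and in lung endothelium Adam19 was higher (2.40).

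The genes whose pattern was most like a member were read from the Pearson correlation of log2(CPM + 1) over 43 cell type profiles of the 4 libraries, among 16109 genes. The nearest gene was Mmp13 for Ereg (r = 0.77), Gna13 for Areg (0.70), Dusp8 for Hbegf (0.83) and Ccdc120 for Tgfa (0.83). It was Dmkn for Nrg1 (0.73), Aldh1a2 for Nrg2 (0.75), Rgma for Egfr (0.85), Rhbdf1 for Erbb2 (0.94) and Gal3st1 for Erbb3 (0.84). Profiles of 1 library share its depth and free RNA, and the values are a description.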

How the data were processed

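The deposited values are raw UMI counts, 1 matrix of genes by called cell barcodes for each of the 4 libraries; the labels' processing notes name Cell Ranger 7.0.1 and build mm10. Intronic reads are counted by default in that version. The members and the gene lists were chosen with earlier results of these data known.

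Cells with 200 to 5000 genes and at most 20% mitochondrial UMIs were kept (25524 of 30943 barcodes). Doublets were not removed beyond the gene limit. Clusters came from scanpy 1.11.5 and leidenalg 0.10.2 (2000 variable genes, 30 components, 20 neighbours, resolution 0.8) within each tissue. A name needed 5 markers, 2-fold above the other clusters with a pseudocount of 1 and detected in 10% of cells. These limits were set after the data were seen: with a pseudocount of 5 the fibroblast cluster led by Grm8 stayed unnamed. Unnamed cells were 4.26% (TNF-) and 5.04% (TNF+) of synovium. No deposited file assigns cells to types, so the types here can differ from those of the study because the names were rebuilt.

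UMIs were summed per class and divided by the summed UMIs (CPM). Intervals are exact Poisson for CPM, Clopper-Pearson for a share and conditional binomial for a ratio (SciPy 1.17.1), all at 95%. The ratio calculation was tested on simulated data. A ratio against 0 used a floor of 3 UMIs, and none is given where that floor stands above the level of the other library. Cells were thinned to 1000 UMIs for thinned shares. With 1 library per group no p-value was computed. The text names, per comparison, at most 3 list genes with the largest ratio past 2-fold and at least 100 UMIs, and the gene most like a member. A few genes that this rule selects are not reported here. Expected UMIs from free RNA are the UMIs that other cells hold of genes of a source class, scaled to the member's ratio to those genes in that class. Positions are from GENCODE on GRCm38.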

Additional observations from a re-analysis of the deposited data

Results flagged for a closer look

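In 8 cases the log2 ratio of TNF+ over TNF- took opposite directions in the 2 tissues, with intervals that did not reach 0 in either. With 1 library per group the difference between tissues was not tested, and it is given as a value: the synovial minus the lung log2 ratio. Over all cells it was 2.79 for Areg, 4.50 for Hbegf, 3.26 for Tgfa, 1.42 for Nrg1 and 2.90 for Erbb3, each higher in synovium TNF+ and lower in lung TNF+. These whole-tissue ratios carry the make-up of the libraries. Without clusters held over 90% by 1 library, the synovial ratio was -0.69 for Areg, 0.07 for Tgfa and -1.04 for Erbb3, while Hbegf stayed over 2-fold higher. Nrg1 was within 2-fold in both tissues, and Areg in lung. Within myeloid cells the Nrg1 ratio was -0.83 in synovium and -0.89 in lung. In lymphocytes the difference was -3.41 for Areg, which was lower over the synovial class and higher in lung. The NK or innate lymphoid-like cells of synovium stood no lower in TNF+, on 19 cells, and synovial T cells differed within counting error. In mesenchyme the difference was 3.88 for Hbegf, on 7 UMIs in lung TNF+. In endothelium it was -8.89 for Egfr, which had 134 and 8 UMIs in synovium and 9 and 23 in lung. Free RNA of mesenchyme would bring 118 and 8.47 UMIs to the synovial endothelium, and 14 of the 23 lung UMIs lay in 2 cells, so the value rests on counts near that background and on few cells.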

How the results depend on the processing

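No paired analysis was possible because each group is 1 library, and no replicate could be left out. Over the alternatives run, 601 of 834 log2 ratios stayed within the counting interval of the main ratio. Of those past 2-fold in the main setting, 7 turned direction. Of 149 counts of members, 116 were equal to the main count or within 1.5-fold of it. A ratio against 0 UMIs has no value where the floor stands above the other library's level, as for Tgfa in lung endothelium without its 5 highest cells. Without clusters with over 90% of cells from 1 library, members past 2-fold were 4 in place of 8 in whole synovium (Areg -0.69, Erbb3 -1.04) and 2 in place of 5 in synovial mesenchyme (Areg -1.63). The stricter filter on cells gave 1 in place of 4 in synovial lymphocytes, 4 in place of 2 in lung myeloid cells, 1 in place of 2 in lung lymphocytes, and 1 in place of 3 in lung mesenchyme and in lung endothelium. No filter on cells gave 4 in place of 2 in synovial endothelium and in Schwann cells, 10 in place of 6 in whole lung and 1 in place of 3 in lung mesenchyme, with Erbb2 at 0.16 in lung myeloid cells. Removal of the highest Scrublet scores gave 1 of 4 in synovial lymphocytes and 1 of 2 in synovial endothelium (Nrg1 -0.019). The mean over cells gave 8 in synovial mesenchyme, 3 in whole lung, 5 in lung endothelium and 4 in lung epithelium, with Hbegf at 0.70 in synovial lymphocytes and Erbb2 at 0.21 in lung myeloid cells. UMIs per cell gave 1 in Schwann cells and 5 in lung mesenchyme and in lung epithelium. Without the 5 cells with the most UMIs, counts were 2 in synovial lymphocytes, 8 in synovial mesenchyme, 1 in lung myeloid cells, 0 in lung endothelium and 4 in lung epithelium. A minimum of 100 UMIs tested fewer members and gave 2 in synovial lymphocytes, 1 in synovial endothelium, in lung myeloid cells and in lung lymphocytes, and 0 in lung endothelium, while a minimum of 5 gave 5 in Schwann cells. Each library clustered by itself gave 4 in synovial endothelium, and resolution 1.5 gave 4 in lung myeloid cells. The share of Areg UMIs in TNF- synovial lymphocytes was 75.5% with no filter and 88.0% under the stricter one, and that in TNF+ myeloid cells 42.4% and 66.1%. The cause of these changes was not tested, beyond the cells or members that each alternative removes or adds. Ratios on fewer than 30 UMIs, as in lung mesenchyme and endothelium of TNF+, are limited by depth.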
